A study of Mus musculus with 20 samples.

Results

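The 10 genes *Mrc1*, *Cd163*, *Lyve1*, *Timd4*, *Folr2*, *Retnla*, *Clec10a*, *Mgl2*, *Emr1* and *Csf1r* are commonly used to recognise macrophages that reside in tissues. They were chosen by name, and each was read as the sum of its transcripts, so that they are 10 of the 36611 genes summed from the deposited table. *Emr1* is the older symbol of *Adgre1*, and the annotation used here still carries it. The tissue was iWAT, the inguinal white fat that lies under the skin of the groin, and its RNA was sequenced in 20 female C57BL/6 mice in 4 groups of 5. The study asked what loss of *Tmem120a*, a gene for a protein of the nuclear envelope, does to fat on a low fat diet (LFD) and on a high fat diet (HFD).

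Control mice were littermates that carried floxed *Tmem120a* on both alleles without Cre, and the labels call them wild type. *Ad-Tmem120a-/-* mice carried the same floxed alleles together with a Cre transgene driven by the adiponectin promoter. That promoter is active in mature adipocytes and the line was picked partly because it spares macrophages, so the design deletes the gene in the fat cells that surround the macrophages and not in the macrophages themselves. The mice ate LFD (10.5% fat) or HFD (58% fat) for 15 weeks and were 6 months old when tissue was taken. They are named here by diet, genotype and the number in their label.

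Macrophages of healthy fat sit along vessels and between adipocytes, where they take up debris, iron-bearing haemoglobin and lipid, and they depend on signalling through the CSF1 receptor. Many carry scavenger and lectin receptors on their surface, and type 2 cytokines such as IL-4 and IL-13 raise several of these genes through STAT6. In obesity a different, lipid-associated state marked by genes such as *Trem2*, *Cd9* and *Gpnmb* becomes common around dying adipocytes. None of the 10 genes belongs to macrophages alone: lymphatic vessels use *Lyve1*, some dendritic cells use *Clec10a* and *Mgl2*, and *Timd4* is also found on macrophages of lymphoid organs.

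All 10 genes were detected in every library. Levels are given in TPM, Salmon's unit of transcript abundance, which corrects for transcript length and sequencing depth. Total estimated counts lay between 54605101 and 92387737 read pairs per library. Adipocyte genes summed to between 20488 and 41952 TPM and a list of 19 general macrophage genes to between 708 and 1567 TPM, so every library held RNA of both. *Tmem120a* itself had a mean of 85.4 ± 28.4 TPM (SD, n = 5) in control and 41.5 ± 21.9 TPM in *Ad-Tmem120a-/-* mice on LFD, and 119 ± 44.5 against 51.6 ± 26.7 TPM on HFD, with overlap between the genotypes on each diet. Cre removes only some exons of the gene and acts in adipocytes, whereas the sum counts reads from all its exons and all cells of the sample. Other cells in the samples differed widely: 8 skeletal muscle fibre genes summed to 5.77 to 47.0 TPM in control mice on HFD, 37.2 to 1337 TPM in *Ad-Tmem120a-/-* mice on HFD and 7.98 to 3063 TPM across the LFD groups. The 15 lymphocyte genes summed to between 12.7 and 257 TPM.

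*Retnla* was by far the most abundant of the 10. It encodes RELMα, a small secreted protein of the resistin family that macrophages make under IL-4 and IL-13, and it had a mean of 1051 TPM over the 20 mice, or 77.5% of the summed TPM of the 10 genes. *Mrc1*, the mannose receptor CD206, followed with 78.4 TPM, and *Folr2*, the folate receptor β, with 52.9 TPM. The lectin gene *Mgl2* had a mean of 37.9 TPM, *Csf1r*, the receptor for CSF1 and IL-34, 27.2 TPM, and *Timd4*, a receptor that binds phosphatidylserine on dying cells, 25.6 TPM. *Cd163*, the scavenger receptor for haemoglobin bound to haptoglobin, had 24.2 TPM, the lectin gene *Clec10a* 21.6 TPM, *Lyve1*, a receptor for hyaluronan, 19.6 TPM, and *Emr1*, which encodes the F4/80 antigen, 18.5 TPM. Within a mouse the upper part of this order was steady: *Retnla* exceeded *Mrc1* in 20 of 20 mice, *Mrc1* exceeded *Folr2* in 19, *Folr2* exceeded *Mgl2* in 18 and *Mgl2* exceeded *Csf1r* in 19. From *Csf1r* down, each gene exceeded the next in only 11 or 12 of 20 mice, and those neighbours cannot be ranked.

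**Figure D1:**
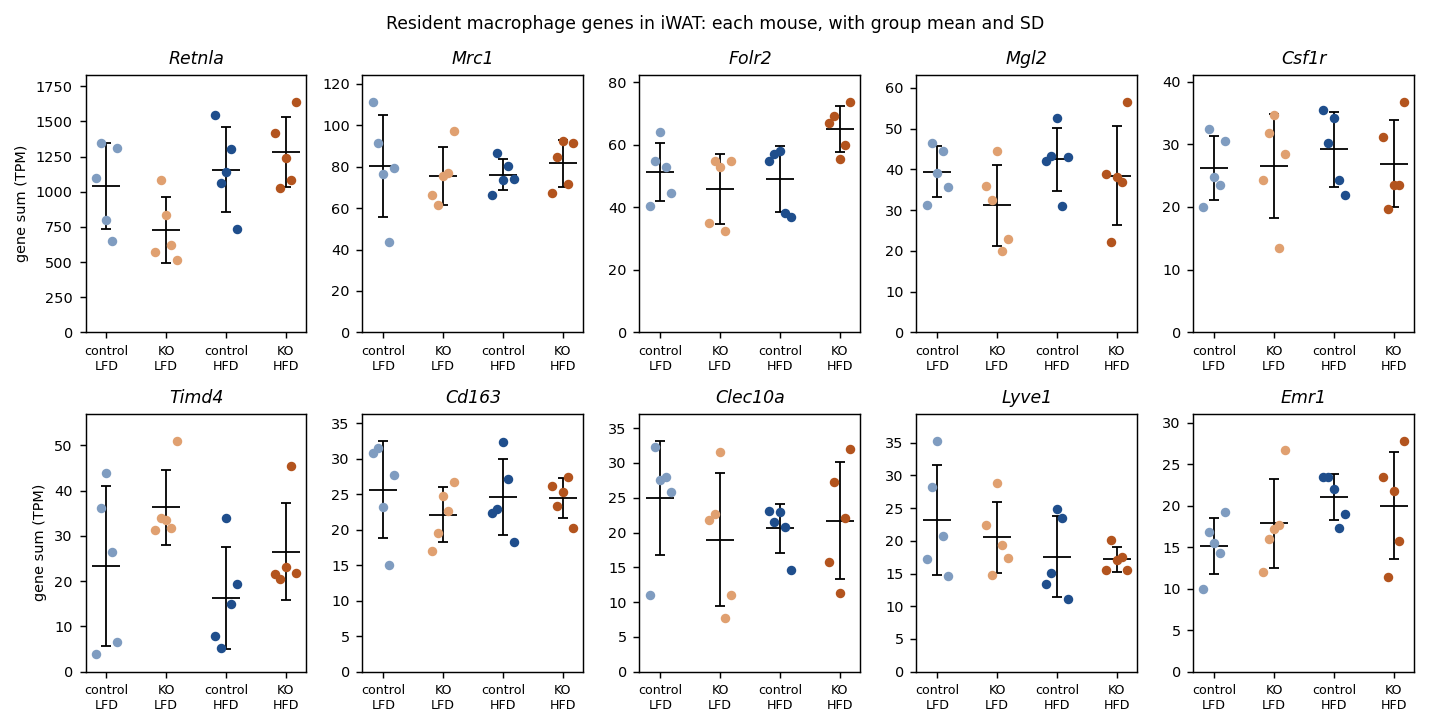
Gene sums in TPM (vertical axes, linear and from 0) of the 10 genes in each mouse of the 4 groups (horizontal axes); points are mice, the horizontal mark is the group mean and the bars are 1 SD, n = 5. Folr2 in Ad-Tmem120a-/- mice on HFD lies between 55.5 and 73.7 TPM, above all 5 mice of that genotype on LFD, while Timd4 has low points of 3.91 to 7.95 TPM in the control groups only.

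The lectin genes *Clec10a* and *Mgl2* are neighbours on chromosome 11 (*Clec10a* chr11:69980125-69984336, *Mgl2* chr11:69943831-69951052, both on the plus strand of mm9) and encode closely related receptors for galactose and N-acetylgalactosamine. Their transcripts share stretches that short reads cannot always assign. Of the different words of 31 bases in *Clec10a* transcripts, 22.33% also occur in *Mgl2*, and 22.15% of those of *Mgl2* occur in another gene, 424 of 494 such words in *Clec10a*. The longest run the 2 main transcripts have in common is printed because reads inside it fit either gene. It spans 183 bases, all of them coding, over exons 7 to 9 of both transcripts, and in *Clec10a* its exons lie at chr11:69983324-69983691 and in *Mgl2* at chr11:69949839-69950201.
Clec10a and Mgl2, shared: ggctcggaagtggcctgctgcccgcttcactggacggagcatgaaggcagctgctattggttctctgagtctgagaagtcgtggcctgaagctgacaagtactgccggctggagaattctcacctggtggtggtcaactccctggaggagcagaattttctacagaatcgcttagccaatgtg
Salmon splits such reads by a model, so the level of each of these genes alone is uncertain. Their sum is therefore given too, though in TPM it also moves when reads pass between transcripts of unequal length. *Retnla* shares 5.46% of its words, all with *Retnlg*, which had a mean of only 1.67 TPM, *Cd163* shares 0.62%, and the other 6 genes share none.

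RefSeq promoters (250 bases before to 50 bases after a gene start, GRCm38.p6) were at hand for 6 of the 10 genes. The windows of *Retnla*, *Timd4* and *Folr2* are printed because these genes are described mouse by mouse below for a call, for groups that did not overlap and for the widest spread between mice. They were searched on both strands for GAGGAA, the core bound by PU.1, for GGAA and GAAA set 2 bases apart, the composite element shared by ETS and IRF factors, and for TTC and GAA set 4 bases apart, the element of STAT6. The motifs were chosen after the sequences had been seen. The PU.1 core can overlap the composite, and it does so in none of the matches printed here. Capitals mark matches on either strand.
Retnla, chr16:48842359-48842658, plus strand: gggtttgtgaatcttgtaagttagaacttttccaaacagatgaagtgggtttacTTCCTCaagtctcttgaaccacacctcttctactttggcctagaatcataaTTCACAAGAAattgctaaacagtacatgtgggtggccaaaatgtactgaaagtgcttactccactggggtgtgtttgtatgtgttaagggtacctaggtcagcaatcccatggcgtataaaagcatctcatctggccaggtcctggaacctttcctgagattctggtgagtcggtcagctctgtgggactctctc
Timd4, chr11:46810549-46810848, plus strand: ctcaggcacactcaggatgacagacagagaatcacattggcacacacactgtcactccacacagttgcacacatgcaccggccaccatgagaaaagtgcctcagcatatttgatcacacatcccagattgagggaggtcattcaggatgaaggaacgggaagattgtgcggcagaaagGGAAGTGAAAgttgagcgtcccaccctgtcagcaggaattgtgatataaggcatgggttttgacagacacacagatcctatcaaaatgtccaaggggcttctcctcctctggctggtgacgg
Folr2, chr7:101857141-101857440, minus strand: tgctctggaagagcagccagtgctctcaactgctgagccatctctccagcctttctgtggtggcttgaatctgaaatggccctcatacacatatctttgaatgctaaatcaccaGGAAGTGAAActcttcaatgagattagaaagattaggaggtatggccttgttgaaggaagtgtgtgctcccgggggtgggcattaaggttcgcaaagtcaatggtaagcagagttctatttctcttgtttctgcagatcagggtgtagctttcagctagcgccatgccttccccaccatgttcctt
*Retnla* held 1 match of the STAT6 element and 1 of the PU.1 core, and *Timd4* and this *Folr2* start each held 1 match of the ETS and IRF composite. Of all 32851 promoters of the same length, 6.953% held the STAT6 element, 28.28% the PU.1 core and 2.715% the composite. A second *Folr2* start (chr7:101845282-101845581) and *Cd163* held none of the 3, *Mrc1* held 3 PU.1 cores and *Mgl2* 1. The *Folr2* levels come from a single transcript, and which of these starts it uses was not tested. The printed *Folr2* window may therefore not be the promoter of the RNA measured here.

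*Retnla* was the only member called in any comparison, and the call was for diet in *Ad-Tmem120a-/-* mice. On LFD these mice had 572, 1085, 836, 618 and 518 TPM, and on HFD 1414, 1027, 1240, 1084 and 1636 TPM (mice 6 to 10 and 17 to 21). Mouse 7 on LFD, at 1085 TPM, reached the lower HFD values, and 3 of the 5 HFD mice exceeded every LFD mouse. The fold change on the log2 scale was 0.62 (SE 0.16, adjusted p = 0.0452, edgeR quasi-likelihood test with Benjamini-Hochberg adjustment over 15705 genes). A call was an adjusted p under 0.1, and 714 genes, or 4.55% of those tested, were called higher. Over either direction 9.4% of genes were called, against 1 of the 10 members. The call was lost without *Ad-Tmem120a-/-* mouse 6 on LFD (adjusted p = 0.151) and without mouse 19 on HFD (adjusted p = 0.122), with log2 fold changes of 0.54 and 0.58. In bulk tissue a gene can be lower because fewer cells express it or because each cell holds less of its RNA, and these cannot be told apart. Relative to the summed general macrophage genes, *Retnla* stood at 60.7% on LFD and 101% on HFD in this genotype. In control mice it stood at 99.4% on LFD and 85.5% on HFD. Within groups *Retnla* followed that sum little (Pearson r = 0.11), so these ratios do not give its RNA per macrophage.

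In control mice *Retnla* was not called between diets. The values were 1098, 1346, 801, 648 and 1310 TPM on LFD and 1544, 1060, 1141, 1305 and 735 TPM on HFD (mice 1 to 5 and 11 to 15), with wide overlap. The log2 fold change was -0.11 (95% interval -0.59 to 0.37). Between genotypes on LFD the log2 fold change of *Retnla* was -0.60 (SE 0.21, 95% interval -1.07 to -0.14, adjusted p = 0.929, edgeR), and 3 of 5 *Ad-Tmem120a-/-* mice lay under every control mouse. On HFD it was 0.12 (95% interval -0.25 to 0.49). The genotype difference on HFD minus that on LFD was 0.71 for *Retnla* (SE 0.28, 95% interval 0.12 to 1.30), with an adjusted p of 0.99993 in edgeR and an exact permutation p of 0.0731 on log2(TPM + 1), two-sided. After the TPM were divided by TMM factors the exact permutation p was 0.0299, not adjusted for the other members.

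*Folr2* (chr7:108988512-108993831, minus strand, mm9) was the only member whose groups did not overlap in any comparison, though it was not called. It marks resident macrophages in several tissues and carries folate into them. In *Ad-Tmem120a-/-* mice it had 34.9, 54.8, 53.0, 32.3 and 54.8 TPM on LFD and 67.1, 69.4, 55.5, 60.1 and 73.7 TPM on HFD. The HFD mice all lay above the LFD mice, though the lowest of them, mouse 19 at 55.5 TPM, barely did so. The log2 fold change was 0.36 (SE 0.16, adjusted p = 0.222, edgeR), and an exact permutation of the 10 mice, two-sided and on log2(TPM + 1), gave p = 0.00794, the smallest that 5 against 5 mice allow. In that comparison 1 of 10 members had groups that did not overlap, and 7.95% of all tested genes did.

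In control mice *Folr2* had 40.3, 54.95, 64.1, 53.0 and 44.8 TPM on LFD and 54.8, 57.0, 58.1, 38.2 and 36.9 TPM on HFD. These groups overlapped throughout, with a log2 fold change of -0.31 (95% interval -0.69 to 0.06). Between genotypes on HFD, 4 of 5 *Ad-Tmem120a-/-* mice lay above every control mouse, with means of 65.2 ± 7.30 and 49.0 ± 10.5 TPM (SD, n = 5 each). The log2 fold change was 0.39 (SE 0.13, 95% interval 0.11 to 0.67), and its adjusted p was 0.828 in edgeR against an exact permutation p of 0.0238, two-sided. On LFD the same contrast gave -0.28 (95% interval -0.69 to 0.14). The difference between the genotype effects on the 2 diets was 0.65 for *Folr2* (SE 0.23, 95% interval 0.16 to 1.14), with an adjusted p of 0.99993 in edgeR and an exact permutation p of 0.0343, two-sided. As a share of the general macrophage sum, *Folr2* had a mean of 3.80% on LFD and 5.24% on HFD in *Ad-Tmem120a-/-* mice, and 4.61% and 3.60% in control mice.

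*Timd4* (chr11:46624302-46657834, plus strand, mm9) varied more between mice than any other member, with a highest value 13.02 times the lowest; the other 9 members spanned 2.15 to 4.15 times. Its product binds phosphatidylserine and so tethers dying cells. Control mice had 3.91, 36.2, 43.8, 26.4 and 6.56 TPM on LFD and 7.95, 5.25, 33.8, 15.0 and 19.3 TPM on HFD. *Ad-Tmem120a-/-* mice had 31.3, 34.0, 33.4, 31.7 and 50.8 TPM on LFD and 21.5, 20.5, 23.1, 45.5 and 21.8 TPM on HFD. Control mice 1, 5, 11 and 12 were the 4 lowest of the 20, and no *Ad-Tmem120a-/-* mouse was under 20.5 TPM.

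Whether the inguinal lymph node was taken with the fat pad is not given in the sources used here. These 4 mice also had the 4 lowest sums of the 15 lymphocyte genes, 12.7 to 60.1 TPM against 85.0 to 257 TPM in the other 16 mice. Deviations from group means of *Timd4* and of the lymphocyte sum were correlated over the 20 mice (Pearson r = 0.87, permutation p = 0.00048, adjusted p = 0.018; Spearman rho = 0.81, permutation p = 0.0035, adjusted p = 0.054). This was one of 115 relations computed, each permuted within groups. Without the 2 mice farthest from the median lymphocyte sum r was 0.75 with an adjusted p of 0.18. Within the 10 control mice r was 0.93 (rho 0.84, permutation p of r = 0.0013), within the 10 *Ad-Tmem120a-/-* mice 0.41 (rho 0.10, permutation p of r = 0.39), and within the 16 mice above 80 TPM of lymphocyte genes 0.30 (rho 0.13, permutation p of r = 0.37), so the relation rests on the 4 control mice. Among all 15574 genes compared, *Marco*, a scavenger receptor of macrophages, had the deviations most like those of *Timd4* (r = 0.94 over 20 mice, given with no test), followed by *Cd4* (r = 0.92), both named after their values were seen.

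No *Timd4* comparison was called. The log2 fold change between genotypes was 0.51 on LFD (95% interval -0.72 to 1.73) and 0.70 on HFD (95% interval -0.25 to 1.65). Between diets it was -0.66 in control mice (95% interval -2.10 to 0.78) and -0.46 in *Ad-Tmem120a-/-* mice (95% interval -1.06 to 0.14). In the latter 4 of 5 HFD mice lay under every LFD mouse, and without mouse 20, the high HFD value, the log2 fold change was -0.77 with an adjusted p of 0.063 in edgeR. With the log2 lymphocyte sum as a covariate, a fit added after the data were seen, the genotype difference of *Timd4* on LFD was 0.11 and that on HFD 0.73 (unadjusted p = 0.0138, adjusted p = 1, edgeR).

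**Figure D2:**
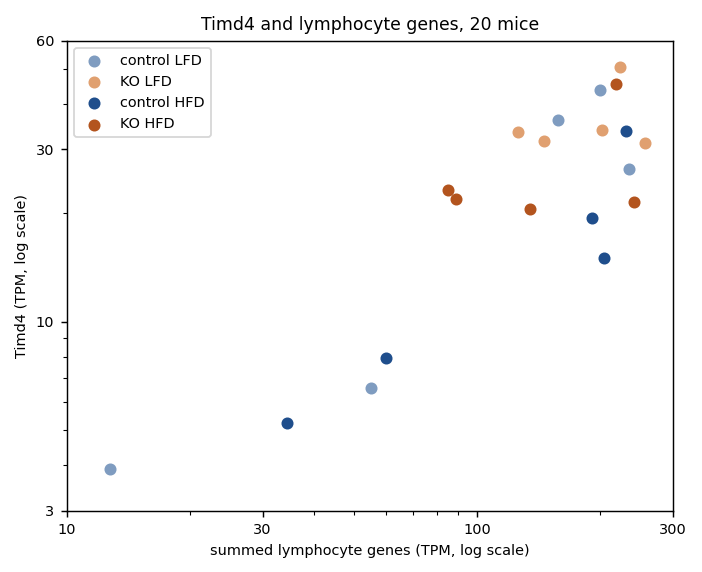
Timd4 (vertical axis, TPM, log scale) against the summed TPM of 15 lymphocyte genes (horizontal axis, log scale) in each of 20 mice, coloured by group. The 4 control mice with lymphocyte sums of 12.7 to 60.1 TPM have Timd4 at 3.91 to 7.95 TPM, and the other 16 mice lie at 15.0 TPM or above.

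Among the lectin genes, *Clec10a* came nearest to a call between diets in control mice, where it had 10.99, 32.3, 27.6, 28.0 and 25.8 TPM on LFD and 23.1, 21.6, 22.9, 20.7 and 14.6 TPM on HFD. Control mouse 1 on LFD was lower than every HFD mouse, and the other 4 LFD mice were higher than all of them. The log2 fold change was -0.45 (SE 0.19, 95% interval -0.86 to -0.05, adjusted p = 0.188, edgeR). Without control mouse 1 on LFD it was -0.56 with an adjusted p of 0.0494, and with the lymphocyte sum as a covariate -0.46 with an adjusted p of 0.0952. On log2(TPM + 1) the diet difference of *Clec10a* in control mice was -0.20, and the one between genotypes on LFD was -0.45 (exact permutation p = 0.254, two-sided). In *Ad-Tmem120a-/-* mice *Clec10a* ranged from 7.77 to 31.6 TPM on LFD and from 11.3 to 31.98 TPM on HFD.

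The gene level of *Clec10a* hangs partly on short transcripts. A processed transcript of 441 bases made up 26.8% of its mean TPM but held 2110 of the estimated counts, against 13006 and 14272 for the 2 full-length coding transcripts. It was listed at 0 in 5 mice, and those 5 had the lowest *Clec10a* sums among all but control mouse 15 on HFD, from 7.77 to 15.8 TPM. *Mgl2* had means of 39.4 ± 6.31 and 42.5 ± 7.65 TPM in control mice on LFD and HFD and 31.1 ± 9.98 and 38.5 ± 12.2 TPM in *Ad-Tmem120a-/-* mice (SD, n = 5 each). Its log2 fold change between genotypes on LFD was -0.43 (95% interval -0.90 to 0.03), and its other 3 contrasts lay between -0.19 and 0.19. The sum of both lectin genes was 64.4 ± 13.99 and 63.0 ± 8.97 TPM in control mice on LFD and HFD and 50.1 ± 19.5 and 60.2 ± 16.3 TPM in *Ad-Tmem120a-/-* mice, with overlap between all groups.

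*Lyve1* (chr7:117994121-118006467, minus strand, mm9) had lower means on HFD in both genotypes, without a call. Control mice had 17.2, 28.1, 35.2, 20.7 and 14.7 TPM on LFD and 13.4, 15.1, 24.9, 23.4 and 11.1 TPM on HFD. *Ad-Tmem120a-/-* mice had 22.3, 14.8, 28.8, 19.4 and 17.4 TPM on LFD and 15.6, 20.2, 17.1, 17.5 and 15.5 TPM on HFD. The groups overlapped in each genotype, and only control mice 11 and 15 on HFD lay under their LFD group. The log2 fold change was -0.63 in control mice (SE 0.30, adjusted p = 0.257, edgeR) and -0.38 in *Ad-Tmem120a-/-* mice (SE 0.19, adjusted p = 0.304), and without mouse 7 on LFD the latter was -0.51 with an adjusted p of 0.0967. Lymphatic endothelium also expresses *Lyve1*. Of 4 tested lymphatic endothelium genes 1 was called lower on HFD in control mice (*Reln*, log2 fold change -1.21) and 2 in *Ad-Tmem120a-/-* mice (*Reln*, -1.73, and *Flt4*, -0.88). Over all genes 751 of 15311 and 762 of 15705 were called lower. In each genotype 1 of the 4 lay above 0. *Pdpn*, the most abundant of them, had means of 14.8 TPM on LFD and 13.6 TPM on HFD in control mice. In *Ad-Tmem120a-/-* mice these were 15.9 and 15.4 TPM. The part of the lymphatic genes in the *Lyve1* values was not tested.

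*Emr1* moved with the way its level was measured. On the TPM scale control mice had 9.96, 16.8, 15.5, 14.3 and 19.2 TPM on LFD and 23.5, 23.5, 22.0, 17.3 and 19.01 TPM on HFD, and 3 HFD mice lay above all LFD mice (exact permutation p = 0.0238 on log2(TPM + 1), two-sided). In edgeR the log2 fold change was 0.27 (SE 0.14, adjusted p = 0.288), and after the TPM were divided by TMM factors the exact permutation p was 0.0952. *Ad-Tmem120a-/-* mice had means of 17.9 ± 5.38 TPM on LFD and 19.98 ± 6.46 TPM on HFD (SD, n = 5). The transcript with most counts, of 3245 bases, made up 70.8% of the mean level and was listed at 0 in *Ad-Tmem120a-/-* mouse 18 on HFD, where a transcript of 3124 bases held 11.4 TPM. That mouse had the lowest *Emr1* sum of its group.

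*Mrc1*, *Cd163* and *Csf1r* were called in no comparison. *Mrc1* had means of 80.4 ± 24.6 and 76.2 ± 7.71 TPM in control mice on LFD and HFD and 75.5 ± 13.8 and 81.6 ± 11.4 TPM in *Ad-Tmem120a-/-* mice. *Cd163* had means of 25.6 ± 6.78 and 24.6 ± 5.38 TPM in control and 22.1 ± 3.88 and 24.5 ± 2.79 TPM in *Ad-Tmem120a-/-* mice. *Csf1r* had means of 26.2 ± 5.14 and 29.2 ± 5.97 TPM in control and 26.6 ± 8.30 and 26.9 ± 6.90 TPM in *Ad-Tmem120a-/-* mice (SD, n = 5 in each case). Their groups overlapped in every comparison. Over the 4 contrasts their log2 fold changes lay between -0.27 and 0.06, and their 95% intervals reached at most 0.42 upward (*Csf1r* between diets in *Ad-Tmem120a-/-* mice) and -0.69 downward (*Cd163* between genotypes on LFD). A rise of the size called for *Retnla* lay outside all of these intervals, while a fall of that size lay inside some of them.

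**Figure D3:**
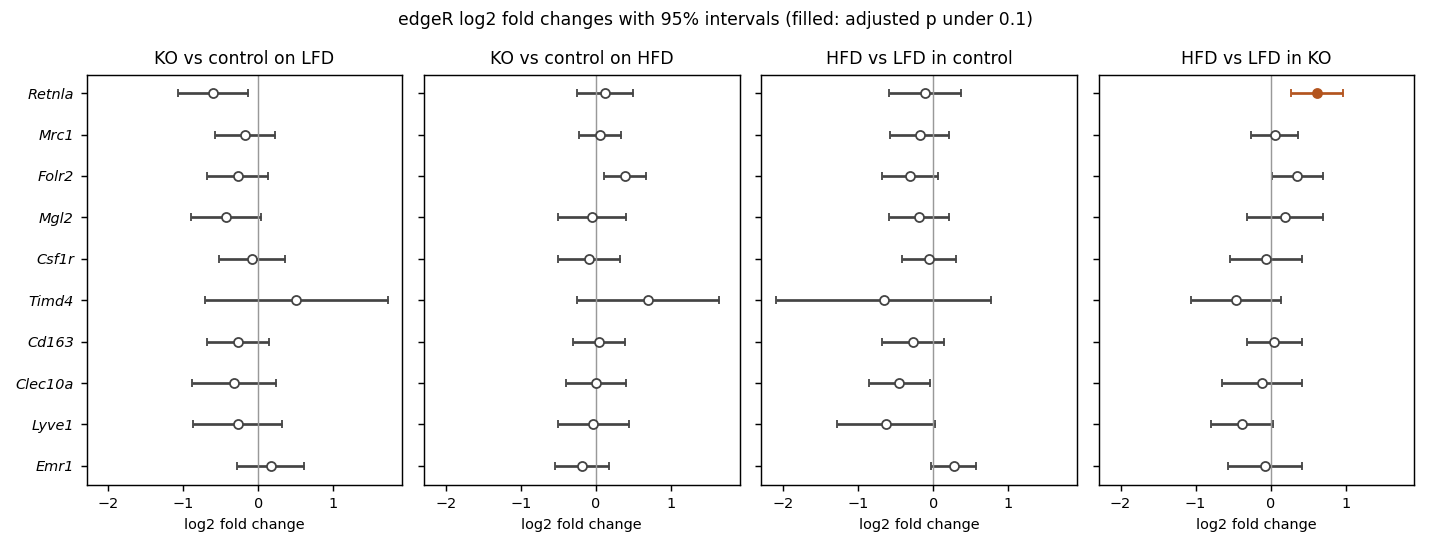
edgeR log2 fold changes (horizontal axes) of the 10 genes (vertical axis, by mean level) in 4 contrasts, n = 5 mice a group; points are estimates, bars are 95% intervals and the filled point is the only call at an adjusted p under 0.1. Retnla on HFD against LFD in Ad-Tmem120a-/- mice stands at 0.62, and Timd4 has the widest intervals in each panel.

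Between genotypes no member was called on either diet. On HFD edgeR called 1 of 15228 genes (0.00657%), 1 member (*Folr2*) had an unadjusted p under 0.05, and DESeq2 and limma also called 0 members. The median log2 fold change of the members was 0.02, against 0.01 over all tested genes, and 6 of 10 lay above 0. On LFD edgeR called 1 of 15717 genes (0.00636%) and 0 members, with 1 member (*Retnla*) at an unadjusted p under 0.05 and 0 members called by DESeq2 or limma. There the median of the members was -0.27, against -0.02 over all tested genes, and 2 of 10 lay above 0 (*Timd4* and *Emr1*). That median was -0.14 without control mouse 3, -0.18 without *Ad-Tmem120a-/-* mouse 7 and -0.15 with limma. No member had genotype groups that did not overlap, against 0.69% of genes on HFD and 1.4% on LFD. For the difference between the genotype effects edgeR called 0 of 15574 genes (0.0%), with 2 members (*Retnla* and *Folr2*) at an unadjusted p under 0.05, and DESeq2 and limma called 0 members. The muscle fibre genes, given above, nearly part the genotypes on HFD, and their part in the HFD values was not tested.

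Between diets in control mice 0 members were called by edgeR, DESeq2 or limma, with 1 (*Clec10a*) at an unadjusted p under 0.05 in edgeR, while 9.32% of 15311 genes were called. No member had groups that did not overlap, against 9.78% of genes. The median of the members was -0.23, against -0.04 over all genes, and 9 of 10 lay under 0. On the TPM scale with limma the median of all genes was 0.17 higher than in edgeR, and *Retnla*, *Mgl2* and *Csf1r* then lay above 0 and the median of the members was -0.03. All 8 muscle fibre genes were called lower on HFD in control mice (median log2 fold change -5.86). Their part in the diet values of the members was not tested. In *Ad-Tmem120a-/-* mice the median of the members was -0.0044, against 0.0026 over all genes, and 5 of 10 lay above 0.

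Genes of other macrophage lists are read against the shares of all genes called between diets, 9.32% in control and 9.4% in *Ad-Tmem120a-/-* mice. Of 14 tested lipid-associated macrophage genes, 6 were called higher on HFD in control mice and 3 in *Ad-Tmem120a-/-* mice, with medians of 0.75 and 0.53 on the log2 scale. In control mice these were *Trem2* (1.67), a lipid receptor, *Gpnmb* (1.41), *Itgax* (0.92), *Mmp12* (2.39), *Atp6v0d2* (2.59) and *Lgals3* (1.10). In *Ad-Tmem120a-/-* mice they were *Gpnmb* (0.93), *Lgals3* (0.89) and *Ctsk* (0.78). The sum of this list was 507 to 849 TPM in the LFD mice and 795 to 1198 TPM in the HFD mice. Its largest parts were *Cd9*, *Fabp5*, *Lgals3* and *Cd63*, with means of 193, 182, 91.2 and 90.2 TPM over all mice. *Trem2*, *Itgax* and *Atp6v0d2* had means of 1.74, 2.20 and 4.08 TPM and added little to it. Which cells the summed RNA came from was not tested. Of 19 general macrophage genes 1 was called higher in control mice (*Cd68*, 0.89) and 0 in *Ad-Tmem120a-/-* mice.

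Of 17 other genes known from tissue macrophages 2 were called lower in each genotype, a share near that of all genes. *Siglec1*, a sialic acid receptor, fell by 1.39 on the log2 scale in control mice and by 1.65 in *Ad-Tmem120a-/-* mice. *Gas6*, a bridging ligand for dying cells, fell by 1.06 in control mice and the lectin gene *Cd209b* fell by 0.96 in *Ad-Tmem120a-/-* mice. No gene of this list was called higher in either genotype. Between genotypes no gene of any of these lists was called on either diet.

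Of a list of 8 genes set around the CSF1 receptor, 1 was called between diets in control and 2 in *Ad-Tmem120a-/-* mice. Of the IL-4 and IL-13 pathway 1 of 12 and 2 of 11 tested genes were called. The CSF1 receptor list also holds *Csf2*, *Csf2ra*, *Csf2rb* and *Csf2rb2*, which serve cytokines other than CSF1. In that list *Csf2rb2*, which encodes a receptor chain for IL-3 and not for CSF1, fell in both genotypes on HFD, by 0.97 and 2.23. The transcription factor gene *Runx1* fell by 0.68 in *Ad-Tmem120a-/-* mice. The ligand gene *Csf1* had a mean of 23.2 TPM and *Il34* of 3.43 TPM, and neither was called. In the IL-4 and IL-13 pathway *Stat6*, the factor that carries the signal, was called higher on HFD in both genotypes (0.49 in control, SE 0.10, and 0.46 in *Ad-Tmem120a-/-* mice, SE 0.14). *Il33*, an alarmin that stimulates type 2 cells, was called higher in *Ad-Tmem120a-/-* mice (1.58, SE 0.38, adjusted p = 0.0335, edgeR), while in control mice its value was 0.37 (SE 0.27), and the difference between them was 1.19 (SE 0.49, adjusted p = 0.99993). *Il4*, *Il13* and *Il5* had means of 0.29, 0.06 and 0.02 TPM.

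Among 11 genes of haem and iron handling, which bear on *Cd163*, *Hp* (haptoglobin) was called higher on HFD in both genotypes (1.60 in control and 1.43 in *Ad-Tmem120a-/-* mice) and *Lrp1* fell by 1.06 and 1.24. *Slc48a1*, a haem transporter, was called higher in control mice (0.88). Of the relatives of the members, *Mrc2*, a collagen receptor related to *Mrc1*, was called higher in both genotypes (1.93 and 1.34). *Kit* fell by 0.75 in control mice and *Stab2* fell by 1.71 in *Ad-Tmem120a-/-* mice.

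Deviations from group means were compared between members over the 20 mice. Of the 45 pairs, 33 had a Pearson r above 0, 8 had an unadjusted permutation p under 0.05, and 2 passed an adjusted p of 0.05 among the 115 relations. Both involved *Csf1r*: with *Mgl2* r was 0.71 (permutation p = 0.0014, adjusted p = 0.024; Spearman rho = 0.72, permutation p = 0.0017, adjusted p = 0.046), and with *Folr2* r was 0.70 (permutation p = 0.0017, adjusted p = 0.024; Spearman rho = 0.63, permutation p = 0.0048, adjusted p = 0.061). Without the 2 mice farthest from the median of the first gene these became 0.54 and 0.57, with adjusted p of 0.27 each. *Mrc1* and *Cd163* had r = 0.64 (permutation p = 0.021, adjusted p = 0.15; Spearman rho = 0.47, permutation p = 0.056, adjusted p = 0.26), which fell to 0.28 without control mice 1 and 4 on LFD. *Clec10a* and *Mgl2*, which share reads, had r = 0.56 (permutation p = 0.034, adjusted p = 0.16; Spearman rho = 0.58, permutation p = 0.022, adjusted p = 0.16) and 0.37 without control mouse 1 and *Ad-Tmem120a-/-* mouse 9 on LFD.

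Against sums of other cells, *Mrc1* went with blood endothelium genes (r = 0.80, permutation p = 5e-05, adjusted p = 0.0057; Spearman rho = 0.71, permutation p = 0.0018, adjusted p = 0.046) and kept r = 0.71 without the 2 farthest mice. *Folr2* and *Csf1r* went with the general macrophage genes (r = 0.72, permutation p = 0.00065, adjusted p = 0.019, and r = 0.70, permutation p = 0.00095, adjusted p = 0.022; Spearman rho = 0.74 and 0.67, with permutation p = 0.00035 and 0.0024 and adjusted p = 0.040 and 0.046), and r was 0.60 and 0.52 without the 2 farthest mice. With the same sum r was 0.11 for *Retnla*, -0.44 for *Mrc1*, -0.20 for *Cd163* and 0.21 for *Lyve1*. For *Mgl2*, *Timd4*, *Clec10a* and *Emr1* it was 0.63, 0.62, 0.61 and 0.52. The adjusted permutation p of each of these members was 0.056 or more. *Csf1r* and *Mgl2* also went with the number of transcripts detected in a library (r = 0.79, permutation p = 0.00023, adjusted p = 0.013, and r = 0.75, permutation p = 0.0016, adjusted p = 0.024; Spearman rho = 0.75 and 0.68, with permutation p = 0.0011 and 0.0054 and adjusted p = 0.046 and 0.062), which ranged from 31291 to 52635, and r was 0.67 and 0.57 without the 2 farthest mice. *Lyve1* and the lymphatic endothelium genes had r = 0.40 (permutation p = 0.080, adjusted p = 0.27; Spearman rho = 0.43, permutation p = 0.064, adjusted p = 0.26) and 0.41 without the 2 farthest. Group means of that lymphatic sum were 19.5 to 25.4 TPM, of which *Pdpn* alone held 13.6 to 15.9 TPM. *Prox1* had a mean of 0.03 TPM over all mice, so this relation rests largely on *Pdpn*. None of the relations kept an adjusted p under 0.05 without its 2 farthest mice. The labels give no batch, so no relation within batches could be computed. The number of transcripts detected was 40627 to 52635 in control and 32691 to 51350 in *Ad-Tmem120a-/-* mice on LFD. On HFD it was 34821 to 52431 in control and 31291 to 47288 in *Ad-Tmem120a-/-* mice. Its part in the comparisons between groups was not tested.

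**Figure D4:**
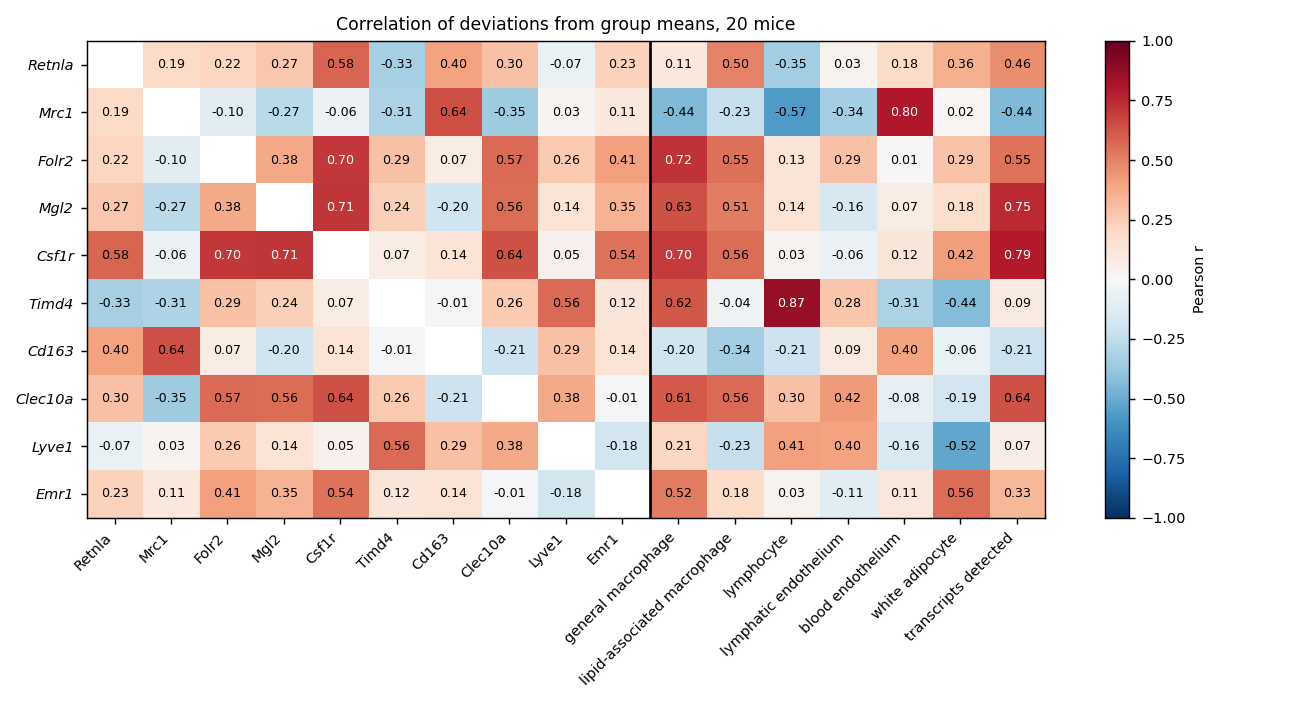
Pearson r of deviations of log2(TPM + 1) from group means over 20 mice, for each pair of the 10 genes (left of the line) and for each gene with 6 summed gene lists and the number of transcripts detected (right of the line); red is positive and blue negative. The largest values are 0.87 for Timd4 with lymphocyte genes and 0.80 for Mrc1 with blood endothelium genes.

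The 5 genes whose deviations were most like the mean of the members, among 15574 genes compared over 20 mice, were *Gm12918* (r = 0.90), *Zbtb16* (0.87), *Cmklr1* (0.83), *Elk3* (0.81) and *Ldb1* (0.81), given with no test. *Cmklr1*, the receptor for chemerin, is itself known from macrophages, and had a mean of 69.8 TPM.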

How the data were processed

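Total RNA of iWAT was depleted of ribosomal RNA and sequenced as stranded read pairs. The authors quantified the reads with Salmon 0.13.1 on Ensembl transcripts of NCBIM37 (mm9), and the submitters' notes also name STAR 2.5.3. The authors deposited TPM and estimated counts for 96533 transcripts in 20 libraries. Here transcripts were summed per gene with GENCODE vM1, an Ensembl release earlier than that in the study's methods, which held 94334 of them; unmatched transcripts took 0.377% to 0.581% of the counts. *Spi1* and *Dcstamp* were matched through older symbols. Groups came from the labels. The labels number each library separately, and p-values measure the spread between libraries of a group.

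Rounded gene sums of counts were tested with the quasi-likelihood test of edgeR 4.0.16 (TMM scaling, R 4.3.3) on genes whose mean over the compared libraries reached 0.5 TPM, with Benjamini-Hochberg adjustment over all genes tested and calls at 0.1. The SE of a fold change was its size divided by the square root of its F statistic. Exact permutation tests of the members were two-sided and ran on log2(TPM + 1), and these p-values are not adjusted. Tests of 5 against 5 mice used 252 assignments. Those of the difference of genotype effects used 63504 assignments, with genotypes permuted within each diet. Correlations used 100000 permutations within groups. Replicates of a group correlated between 0.874 and 0.967 on log2(TPM + 1). The fits were tested on simulated data. DESeq2 1.42.0, limma 3.58.1, RLE scaling, length offsets, no filter, a fit over all libraries, a pseudocount of 0.1, TMM-scaled TPM and leaving out each mouse were alternatives, and the lymphocyte covariate, the transcript with most counts and the subsets of mice for *Timd4* were added after the data were seen. Members, lists and tests were chosen with earlier results of these data known. The genes named are the 10 members, genes of the other lists that were called or are among the 4 most abundant, relatives, *Tmem120a* and the 5 genes most like the members, with exceptions stated in the text. Promoters came from RefSeq (GRCm38.p6); those of *Lyve1*, *Clec10a*, *Emr1* and *Csf1r* were not used here. Counting precision is high at these depths, but the 5 mice per group limit the comparisons. For *Clec10a*, *Mgl2* and *Emr1* the split of reads between transcripts limits them too. Which limit weighs more was not tested.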

Additional observations from a re-analysis of the deposited data

Results flagged for a closer look

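Of 52 sets of 5 mice checked for a mouse far from the others, 4 held one; about 1 in 20 such sets would by chance. *Timd4* in *Ad-Tmem120a-/-* mouse 10 on LFD was 50.8 TPM against 31.3 to 34.0 TPM in the other 4, a gap of 0.859 of the range of the group. *Timd4* in *Ad-Tmem120a-/-* mouse 20 on HFD was 45.5 TPM against 20.5 to 23.1 TPM, a gap of 0.895 of the range. *Clec10a* in control mouse 15 on HFD was 14.6 TPM against 20.7 to 23.1 TPM, a gap of 0.724 of the range. The summed general macrophage genes in control mouse 13 on HFD were 1567 TPM against 1293 to 1330 TPM, a gap of 0.865 of the range. The genotype difference of *Folr2* on HFD exceeded that on LFD by 0.60 on the log2(TPM + 1) scale (exact permutation p = 0.0343, two-sided, not adjusted for the other members); in edgeR the difference had an adjusted p of 0.99993.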

How the results depend on the processing

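The *Retnla* call on HFD against LFD in *Ad-Tmem120a-/-* mice held under all 6 other tools, scalings and filters tried (log2 fold change 0.61 to 0.85, adjusted p 0.00524 to 0.0651) and was lost without mouse 6 on LFD, without mouse 19 on HFD, and with the lymphocyte covariate, which was added after the data were seen (0.57, adjusted p = 0.113). Numbers of called genes depended on the tool and the cause was not tested: on HFD between genotypes 99 with DESeq2 (78 higher), 5 with length offsets, 26 with no filter, 3 with limma and 3 in a fit over all libraries, against 1; on LFD 17 with DESeq2 and 2 each with limma, all libraries and the lymphocyte covariate, against 1; between diets 2205 in control and 2223 in *Ad-Tmem120a-/-* mice with DESeq2 against 1427 and 1476, and 803 in the latter with the covariate; for the difference of genotype effects 17 with DESeq2 against 0. With the covariate 1 member (*Clec10a*) was called in control mice and 0 in *Ad-Tmem120a-/-* mice. On leaving out 1 mouse, called genes ranged from 1 to 58, 1 to 2, 780 to 1845 and 753 to 1355 in these 4 comparisons, and called members from 0 to 1 in control mice and 0 to 2 in *Ad-Tmem120a-/-* mice between diets. Of 115 correlations 8 passed an adjusted p of 0.05, and 0 did without the 2 farthest mice.

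Of 340 alternative fold changes of members, 15 changed sign, none of them called and all at a size of at most 0.23 in the text; so did 45 of 600 values on leaving out 1 mouse. Between genotypes on HFD, *Cd163* became -0.0082 with length offsets, *Lyve1* 0.025 with limma and *Clec10a* -0.00332 with no filter and -0.00362 in a fit over all libraries. Between diets in control mice limma gave 0.17 for *Retnla*, 0.10 for *Mgl2* and 0.15 for *Csf1r*. In *Ad-Tmem120a-/-* mice length offsets gave -0.015 for *Mrc1*, 0.074 for *Clec10a* and 0.030 for *Emr1*, limma gave 0.25 for *Clec10a*, 0.13 for *Emr1* and 0.051 for *Csf1r*, and the covariate gave -0.016 for *Mrc1*. The difference of genotype effects for *Timd4* was -0.20 with limma. On leaving out 1 mouse the values ranged, between genotypes on HFD, from -0.017 to 0.11 for *Mrc1*, -0.045 to 0.14 for *Cd163*, -0.15 to 0.13 for *Lyve1*, -0.00118 to 0.22 for *Retnla*, -0.16 to 0.10 for *Clec10a* and -0.23 to 0.069 for *Mgl2*; on LFD from -0.052 to 0.26 for *Emr1* and -0.18 to 0.069 for *Csf1r*; between diets in control mice from -0.24 to 0.0033 for *Retnla* and -0.14 to 0.038 for *Csf1r*; in *Ad-Tmem120a-/-* mice from -0.027 to 0.14 for *Mrc1*, -0.039 to 0.16 for *Cd163*, -0.29 to 0.013 for *Clec10a*, -0.18 to 0.16 for *Emr1* and -0.21 to 0.041 for *Csf1r*; and for the difference of genotype effects from -0.027 to 0.40 for *Lyve1*, -0.22 to 0.57 for *Timd4* and -0.18 to 0.076 for *Csf1r*. The exact test of *Folr2* between genotypes on HFD lost its p under 0.05 without mice 17, 18, 20 or 21 (p = 0.0635 to 0.0873), and that between diets in *Ad-Tmem120a-/-* mice without mouse 21 (p = 0.0556). With TMM-scaled TPM the exact permutation p of the *Retnla* difference of genotype effects went from 0.0731 to 0.0299. That of *Timd4* between diets in *Ad-Tmem120a-/-* mice went from 0.0635 to 0.0397, and to 0.00794 without mouse 20 on unscaled TPM. The paper used littermates as controls, but the labels do not say which mice shared a litter. They number the mice from 1 to 21 across the groups, and no groups share a number. No paired analysis was therefore possible, and any likeness between littermates is not accounted for.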
